A study of Mus musculus with 5 samples.

Results

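The data cover 10 genes of the BCL2 family that lie outside the usual list of p53 targets: the pro-survival members Mcl1, Bcl2l1, Bcl2l2 and Bcl2, the pore-forming members Bak1 and Bok, and the BH3 members Bad, Bid, Bcl2l11 and Bmf. They were taken by name, by matching the Ensembl identifier of each row to its symbol in the GENCODE M21 annotation of GRCm38, and all 10 were found among 54100 genes. Poly(A) RNA of B16F10, a pigmented mouse melanoma line, was sequenced with a strand-specific kit, with 1 library for each of 5 groups. The groups were conventional 3D culture (genotype given as WT), dynamic suspension culture (WT), shControl (WT), a library labelled HIF-1α knockdown and a library labelled HIF-1α overexpression, none with a treatment. All groups share the cell line and 1 growth protocol in the labels, shaken culture in serum-free medium for 7 to 10 days at 60 to 80 rpm, and for the constructs and the number of clones nothing is given in the sources used here. Each library pooled 3 repeats, so no difference has a replicate check and every comparison is between 2 libraries. HIF-1α is stabilised when oxygen is low and then switches on genes of glycolysis, vessel growth and mitochondrial removal, and by its title the series asks how it relates to stem-like tumour cells and the p53 pathway.

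BCL2 family proteins decide whether the outer membrane of the mitochondrion stays closed. Pro-survival members hold the pore-forming members BAX and BAK or the BH3 proteins in check, and the pore former BOK only weakly. BH3 proteins, which answer to growth factor loss, cell detachment, damage or stress, bind the pro-survival members or activate the pore formers, after which cytochrome c leaves the mitochondrion and caspases are activated. In pigment cells the lineage factor MITF is known to drive BCL2, many melanomas are known to rely on MCL1, and BIM and BMF are known for their part in death after loss of matrix contact.

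Levels are counts scaled by library size and by edgeR's TMM factors (CPM), and a bracket or interval after a value is its 95% counting interval, which covers counting error only and takes each deposited unit as 1 read. Deposited values summed to between 59493240 and 61267892 in shControl, conventional 3D culture and dynamic suspension, whose columns look like estimated counts, and to 14803426 and 15393189 in the knockdown-labelled and overexpression-labelled libraries, whose columns look like plain counts. If 4 units of the former stand for 1 fragment, which was not tested, intervals of the members' ratios are 2.01 to 2.08 times as wide among these 3 libraries and 1.11 to 1.53 times as wide between them and the other 2. For the knockdown-labelled and overexpression-labelled libraries against the other 3, kind of column and group cannot be told apart. Hif1a, the targeted gene, was 542, 390.5, 61.3, 95.1 and 384 CPM in conventional 3D, dynamic suspension, shControl, labelled knockdown and labelled overexpression, and so stood above shControl in the knockdown-labelled library, against its label. All 7 pigment-cell markers were above 1 CPM in every library (summed level 14699.5 to 30823 CPM). The 5 immune, 4 fibroblast, 4 endothelial and 4 epithelial markers summed to at most 15.3, 71.3, 10.7 and 0.864 CPM, with Cd3e, Cdh5, Epcam and Krt5 at 0 in all 5 libraries. In pooled cultures, fewer cells of a kind and less RNA per cell cannot be told apart.

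The sequences just upstream of the start sites are shown for Bcl2l11, Bmf, Bok and Bcl2, the members whose levels differed most between libraries. They come from RefSeq's GRCm38.p6 promoter table, in which all 10 members matched with 16 windows of 300 bases (250 before and 50 after a start), run 5′ to 3′ toward the gene, and leave out annotated exons. Capitals mark matches on either strand to GTAAACA (the element bound by forkhead factors such as FOXO3), ACGTG or GCGTG (the core of the element bound by HIF) or GGGCGG (the GC box).
Bcl2l11, plus strand, chr2:128125788-128126037: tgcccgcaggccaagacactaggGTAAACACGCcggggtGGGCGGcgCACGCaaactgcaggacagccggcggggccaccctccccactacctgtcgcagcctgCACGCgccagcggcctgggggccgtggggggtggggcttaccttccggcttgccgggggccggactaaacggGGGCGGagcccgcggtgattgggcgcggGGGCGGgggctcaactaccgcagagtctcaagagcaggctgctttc
Bmf, minus strand, chr2:118549688-118549936: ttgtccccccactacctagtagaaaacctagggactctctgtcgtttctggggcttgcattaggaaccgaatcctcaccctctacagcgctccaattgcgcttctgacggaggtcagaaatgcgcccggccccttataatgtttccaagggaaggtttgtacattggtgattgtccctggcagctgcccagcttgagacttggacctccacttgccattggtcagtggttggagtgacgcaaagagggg
Bok, plus strand, chr1:93685325-93685574: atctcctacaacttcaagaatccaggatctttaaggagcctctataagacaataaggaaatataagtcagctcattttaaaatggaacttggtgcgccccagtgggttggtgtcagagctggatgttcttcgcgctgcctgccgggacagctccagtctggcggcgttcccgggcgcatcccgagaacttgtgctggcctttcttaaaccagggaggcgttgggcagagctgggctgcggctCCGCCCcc
Bcl2, minus strand, chr1:106714291-106714540: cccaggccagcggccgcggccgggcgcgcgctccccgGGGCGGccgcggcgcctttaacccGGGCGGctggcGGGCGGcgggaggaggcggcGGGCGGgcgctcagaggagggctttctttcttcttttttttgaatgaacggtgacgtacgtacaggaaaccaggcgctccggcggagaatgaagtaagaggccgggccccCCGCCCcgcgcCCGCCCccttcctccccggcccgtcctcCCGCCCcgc
The Bcl2l11 stretch alone among these 4 held GTAAACA, 227 bases upstream of its start, overlapping 1 of 3 matches to GCGTG. Bcl2 held 7 GC boxes, and the Bmf stretch held none of the marked motifs.

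Over all 32851 promoter windows of the table, GTAAACA was in 3.65%, ACGTG in 19.6%, GCGTG in 32.4% and GGGCGG in 35.7%. Among the members, GTAAACA was in 1 of 16 windows (Bcl2l11), ACGTG in 1 (at another start of Bmf, within the 50 bases after it, not shown), GCGTG in 5 (Bcl2l1, Bad and Bcl2l11) and GGGCGG in 9 windows of 8 members. Of 4 other motifs searched on both strands, the E-box CACGTG, which holds ACGTG, was in 0 of 16 windows and in 7.15% of all. The E-box CATGTG was in 1, at Bcl2l1, and in 14.2% of all. The cyclic AMP element TGACGTCA and the ATF4-type element TGATGCAA were in 0, and in 1.79% and 0.895% of all. A match is a run of letters, not a measured binding site.

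Member by member, some genes were nearly level over the 5 libraries and others ranged more widely. The ratio of the highest to the lowest library was 1.28 for Bid, 1.45 for Bad, 1.46 for Mcl1, 1.46 for Bcl2l2 and 1.48 for Bcl2l1, all on the scale with a prior of 2 counts. It was 2.86 for Bak1, 3.31 for Bcl2, 4.24 for Bcl2l11, 4.45 for Bmf and 7.14 for Bok. Over the 12848 genes that averaged 1 CPM or more the median of this ratio was 2.51. Above that median lay 5 of 10 members, which says nothing particular of the family. The 5 most level genes thus hold 3 of the 4 pro-survival members, and the 5 most variable ones hold both pore formers, the BH3 members Bcl2l11 and Bmf, and Bcl2. The wide range of Bak1 spans the 2 kinds of column. Its log2 range was 0.47 within the 3 columns like estimated counts and 0.47 within the 2 like plain counts. The medians over the 12848 genes were 0.84 and 0.66.

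**Figure D1:**
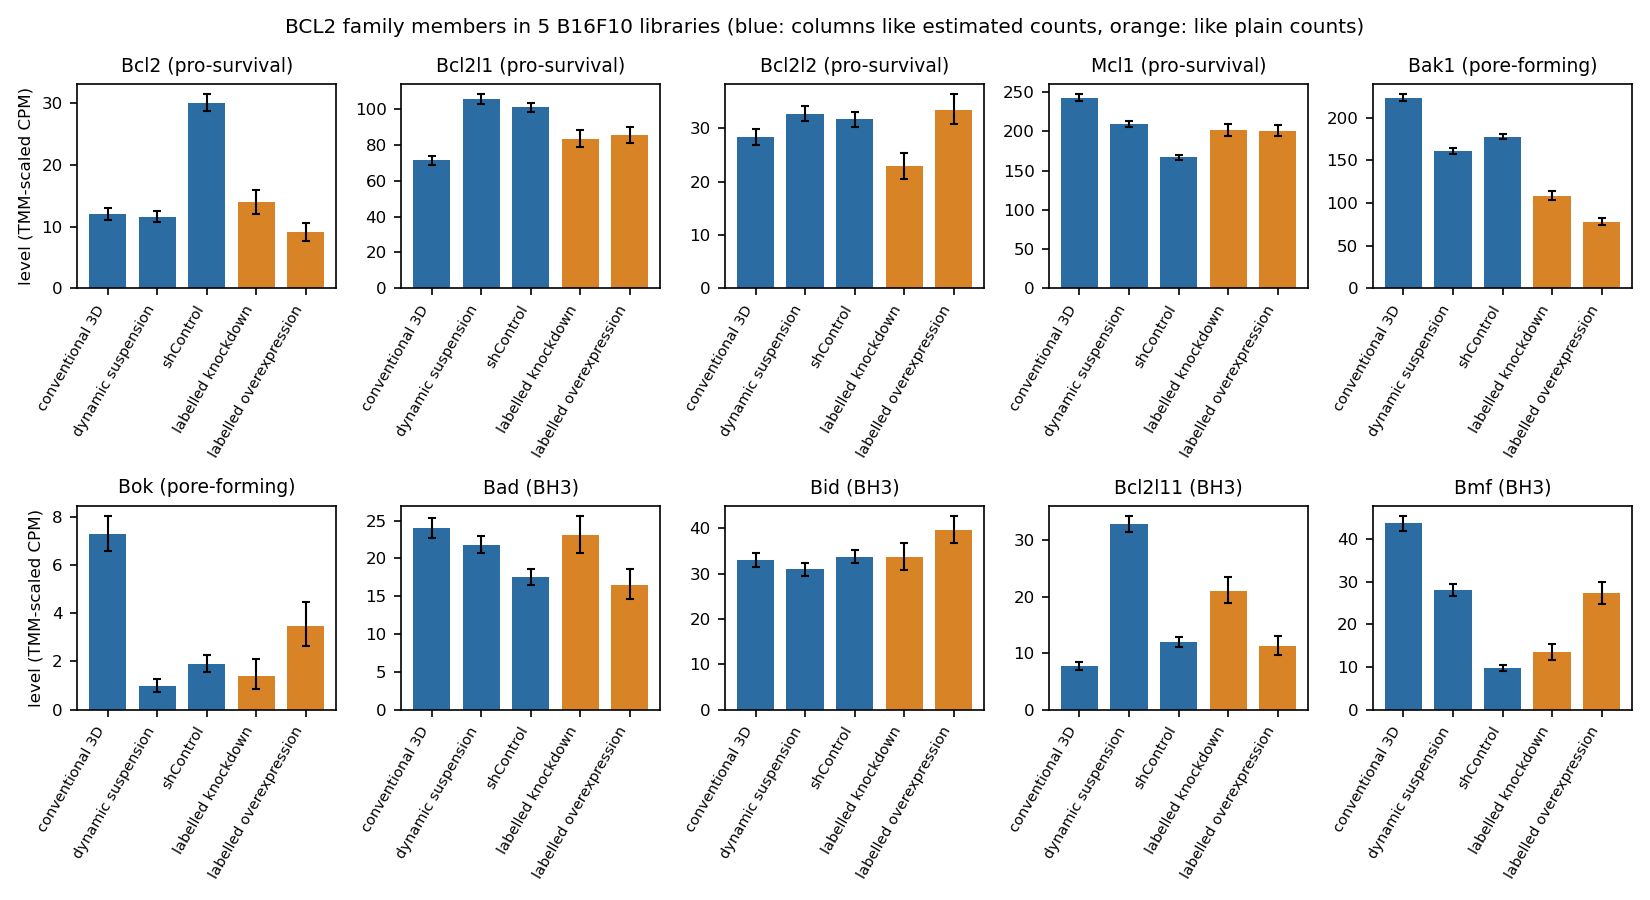
Level of each of the 10 members (vertical axis, TMM-scaled CPM, a separate linear scale per gene) in the 5 libraries (horizontal axis), with 95% counting intervals as error bars and 1 library per bar. Blue bars are columns that look like estimated counts and orange bars columns that look like plain counts. Bcl2 is highest in shControl, Bcl2l11 in dynamic suspension, and Bmf and Bok in conventional 3D culture.

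Counted over the family, calls beyond 2-fold asked for a log2 ratio of 1 or more in size, a mean of at least 1 CPM in the pair and a counting interval that leaves out a ratio of 1. In dynamic suspension over conventional 3D culture, 1 of 10 members was higher (Bcl2l11) and 1 lower (Bok), beside 6.47% higher and 7.68% lower of 12875 genes. In dynamic suspension over shControl, 2 were higher (Bcl2l11 and Bmf) and 1 lower (Bcl2), beside 13.8% and 14.9% of 12940 genes. In conventional 3D culture over shControl, 2 were higher (Bok and Bmf) and 1 lower (Bcl2), beside 14.1% and 14.9% of 12929 genes. Counts of 1 or 2 genes in 10 are near these shares of all genes, so they say nothing particular of the family.

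Comparisons with the knockdown-labelled and overexpression-labelled libraries gave counts of the same size. In labelled knockdown over shControl, 0 of 10 members were higher and 1 lower (Bcl2), beside 8.04% and 15.6% of 12639 genes. In labelled overexpression over shControl, 1 was higher (Bmf) and 2 were lower (Bcl2 and Bak1), beside 16.1% and 20.1% of 12881 genes. In labelled overexpression over labelled knockdown, 2 were higher (Bok and Bmf) and 0 lower, beside 17.5% and 14.8% of 12305 genes. The median log2 ratio of the members lay between -0.14 and 0.15 in the 6 comparisons, and that of all genes between -0.03 and 0.01. Scaling by total counts moved the median of all genes by 0.19 in dynamic suspension over conventional 3D culture (61.3% of calls over all genes were then higher, against 45.7%) and by -0.25 in conventional 3D culture over shControl (31.8% against 48.6%). TMM factors from coding genes alone moved it by -0.10 in labelled knockdown over shControl (25.7% against 34.0%). Shifts of this size could not change the sign of a called member, whose log2 size is at least 1.

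**Figure D2:**
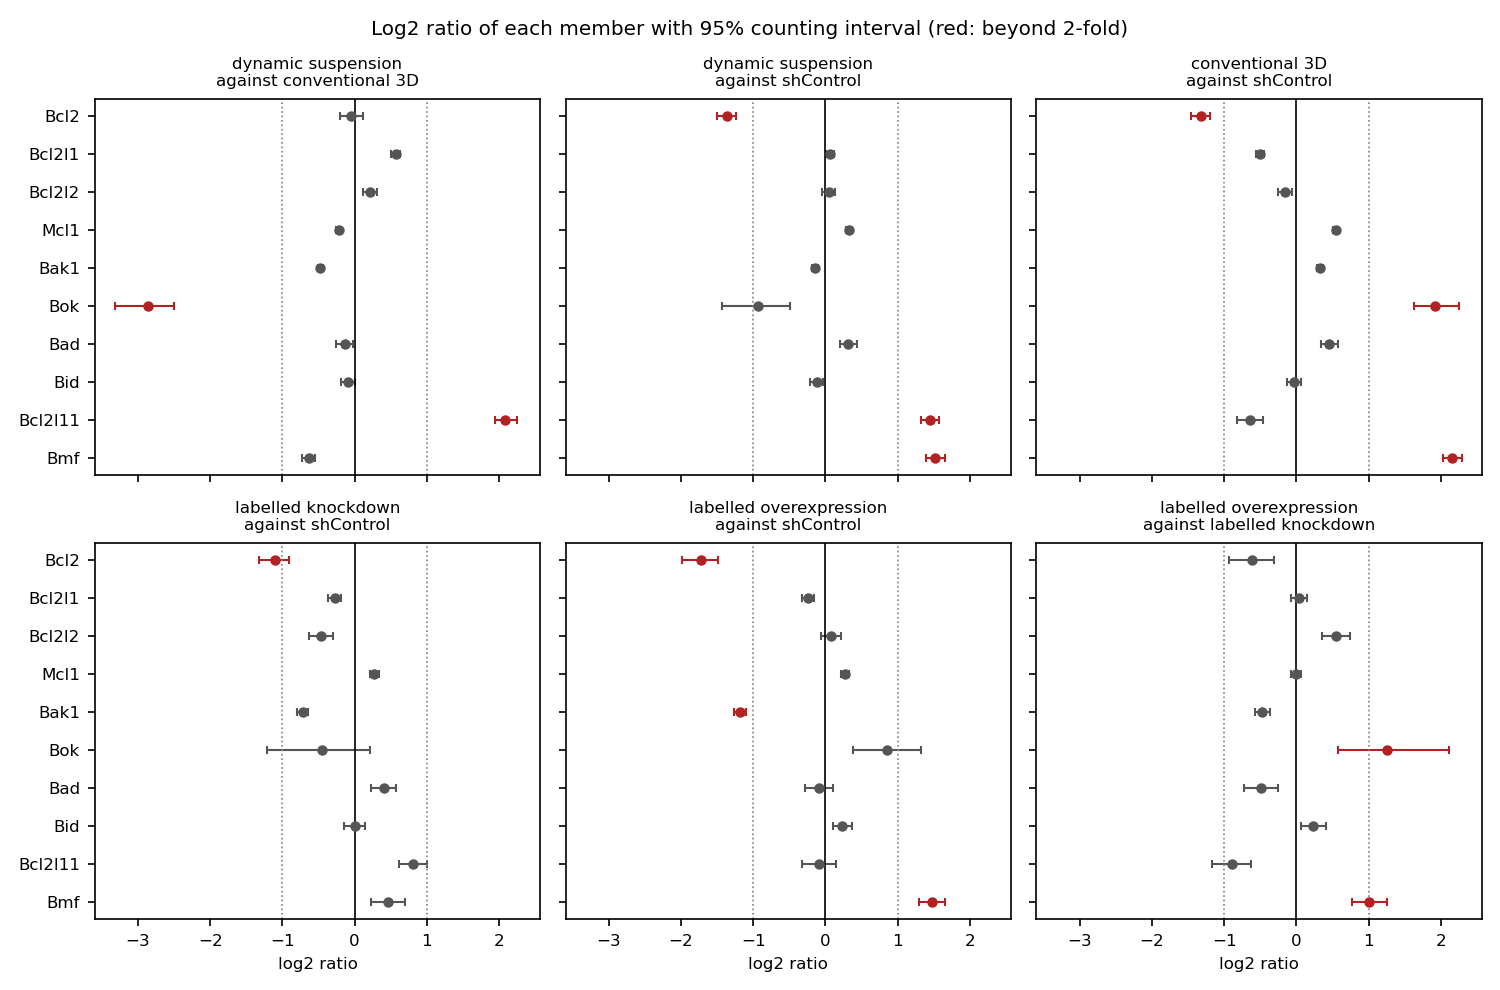
Log2 ratio of the 10 members (horizontal axis) in each of the 6 comparisons, 1 panel each, with 95% counting intervals. Red points are beyond 2-fold and dotted lines mark log2 ratios of -1 and 1. Bcl2 is to the left in all 4 comparisons with shControl, and Bmf is to the right in all 4, beyond 2-fold in 3 of them.

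**Figure D3:**
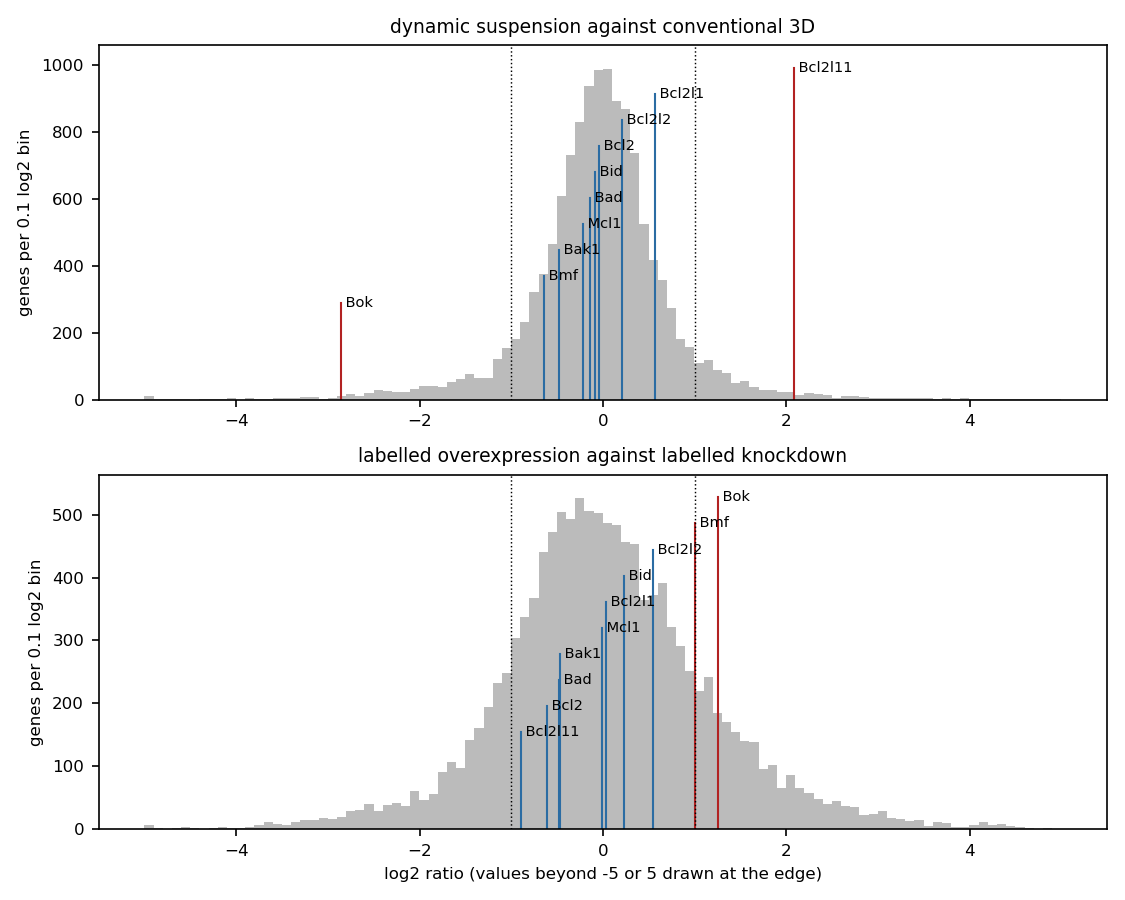
Distribution of the log2 ratio over all genes averaging 1 CPM or more (grey, genes per 0.1 log2 bin), with the 10 members as lines (red: beyond 2-fold), in dynamic suspension over conventional 3D culture and in labelled overexpression over labelled knockdown. Line height only separates the names. Bcl2l11 (2.09) and Bok (-2.85) lie in the tails of the first panel, whose other members lie within the bulk, and Bok (1.25) and Bmf (1.01) are past the limit in the second.

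Mcl1 (ENSMUSG00000038612, GRCm38 chromosome 3, 95658788 to 95663176, plus strand) encodes a short-lived pro-survival protein that holds BAK and BIM. It was 243 CPM with conventional 3D culture, 209 with dynamic suspension, 167 in shControl, 202 in the knockdown-labelled library and 201 in the overexpression-labelled library. The conventional 3D library was the highest and shControl the lowest. Between them, neighbours in the order had log2 ratios whose counting intervals included 0. These were -0.004 to 0.11 for dynamic suspension over labelled knockdown and -0.06 to 0.08 for labelled knockdown over labelled overexpression. Dynamic suspension was not compared with labelled overexpression. Against shControl the log2 ratio of Mcl1 was 0.54 in conventional 3D culture (interval 0.51 to 0.58), 0.33 in dynamic suspension, 0.27 in the knockdown-labelled library and 0.27 in the overexpression-labelled library, none beyond 2-fold.

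Bcl2l1 (ENSMUSG00000007659, chromosome 2, 152780668 to 152831728, minus strand), the gene of BCL-XL, was 71.4 CPM with conventional 3D culture, 106 with dynamic suspension, 101 in shControl, 83.4 in the knockdown-labelled library and 85.3 in the overexpression-labelled library. The order of Bcl2l1 between the culture methods was the opposite of that of Mcl1. From conventional 3D culture to dynamic suspension, the log2 ratio was 0.57 for Bcl2l1 (interval 0.51 to 0.63) and -0.22 for Mcl1 (-0.25 to -0.18). With scaling by total counts these were 0.76 and -0.03. The ratio of both genes within a library needs no scaling. Per kilobase of exon, Mcl1 was 4.57 times Bcl2l1 with conventional 3D culture, 2.65 times with dynamic suspension, 2.21 times in shControl, 3.24 times in the knockdown-labelled library and 3.16 times in the overexpression-labelled library. With the longest transcript of each gene as its length the ratio was 1.24 in shControl and 2.56 in conventional 3D culture, still the lowest and the highest of the 5 libraries.

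Bcl2l2 (ENSMUSG00000089682, chromosome 14, 54883377 to 54888234, plus strand), the gene of the pro-survival protein BCL-W, was 28.3, 32.7, 31.7, 22.9 and 33.5 CPM in conventional 3D culture, dynamic suspension, shControl, labelled knockdown and labelled overexpression. The library labelled knockdown was the lowest, and the 3 highest did not differ beyond counting error. The readthrough gene Gm20521, which joins Bcl2l2 to its neighbour Pabpn1, shares 594 of the 4462 exon bases of Bcl2l2 and held 498 counts in conventional 3D culture, 1 in the overexpression-labelled library and 0 in each of the other 3. As an alternative chosen after seeing the data, all of these counts were added to Bcl2l2. The log2 ratio of Bcl2l2 in dynamic suspension over conventional 3D culture then went from 0.21 to -0.20. That in conventional 3D culture over shControl went from -0.16 to 0.25. The direction of Bcl2l2 in conventional 3D culture therefore depends on whether all of these counts are given to it or none. Giving it only a part of them was not tried.

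Bcl2 itself (ENSMUSG00000057329, chromosome 1, 106538178 to 106714274, minus strand), the founding pro-survival gene, stood apart in shControl. It was 12.0 CPM with conventional 3D culture, 11.6 with dynamic suspension, 30.1 in shControl (28.7 to 31.5), 13.9 in the knockdown-labelled library and 9.05 in the overexpression-labelled library (7.67 to 10.6). The log2 ratio of Bcl2 to shControl was -1.32 in conventional 3D culture (interval -1.46 to -1.20), -1.37 in dynamic suspension (-1.50 to -1.24), -1.11 in the knockdown-labelled library (-1.32 to -0.91) and -1.73 in the overexpression-labelled library (-1.98 to -1.49). Bcl2 was thus lower beyond 2-fold in each of these 4 comparisons, which share the shControl library. Between the culture methods the log2 ratio was -0.05 (interval -0.20 to 0.11), and 0.14 with scaling by total counts. Mitf, the lineage factor known to act on Bcl2, was 344, 350.4 and 314 CPM in conventional 3D culture, dynamic suspension and shControl, and was 139 CPM in the knockdown-labelled and 158 CPM in the overexpression-labelled library. Mitf thus stood close together in the columns like estimated counts, among which Bcl2 was highest in shControl, and its part in the level of Bcl2 was not tested.

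Per kilobase of exon, Mcl1 was the leading pro-survival transcript in every library. It made up 75.4% of the summed level of the 4 pro-survival members with conventional 3D culture, 65.9% with dynamic suspension, 60.0% in shControl, 70.4% in the knockdown-labelled library and 68.4% in the overexpression-labelled library. Bcl2l1 came second with 16.5%, 24.8%, 27.2%, 21.7% and 21.7%. Bcl2 was the smallest at 1.39%, 1.37%, 4.04%, 1.81% and 1.15%, largest in shControl. The sum of the 4 genes ranged from 81.2 to 94.3 CPM per kb. With the longest transcript as length the share of Mcl1 ran from 48.4% to 65.8%, and it remained the largest share in each library. The closely related genes Bcl2a1a, Bcl2a1b and Bcl2a1d had 0 counts in all 5 libraries. They are mouse counterparts of a pro-survival gene that MITF is known to drive in human melanoma. The upper ends of their counting intervals ran from 0.0599 CPM in shControl to 0.242 CPM in the knockdown-labelled library. A floor of 3 counts a library, 0.0487 to 0.197 CPM, is lower. In fragments of 4 units, a floor of 3 is 0.195 CPM in shControl. Bcl2a1b shares 401 of its 817 exon bases with another gene on the same strand. How reads shared between genes were counted is not given in the sources used here, so 0 counts do not bound these levels.

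**Figure D4:**
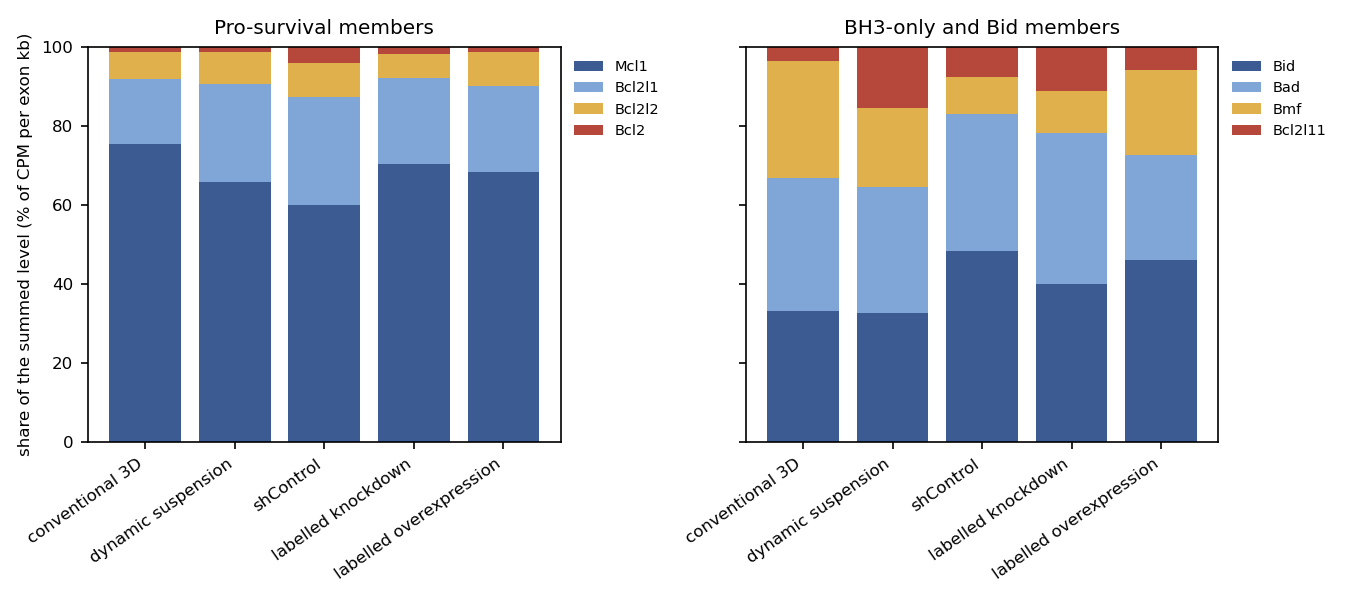
Share of each gene in the summed level of its class (vertical axis, percent of CPM per exon kb) in the 5 libraries (horizontal axis), for the 4 pro-survival members on the left and the 4 BH3 members on the right. Mcl1 takes 60.0% to 75.4% of the pro-survival sum, and Bcl2l11 takes 3.44% of the BH3 sum with conventional 3D culture and 15.4% with dynamic suspension.

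Bak1 (ENSMUSG00000057789, chromosome 17, 27019810 to 27029009, minus strand), a pore former that sits in the mitochondrial outer membrane, was 223 CPM with conventional 3D culture, 161 with dynamic suspension, 178 in shControl, 108 in the knockdown-labelled library and 78.1 in the overexpression-labelled library. All 3 columns that look like estimated counts lay above both that look like plain counts, so for Bak1 the group and the kind of column cannot be told apart. Its log2 ratio to shControl was -1.18 in the overexpression-labelled library (interval -1.27 to -1.10), beyond 2-fold, and -0.72 in the knockdown-labelled library. Within 1 kind of column the differences were smaller, with a log2 ratio of -0.47 in dynamic suspension over conventional 3D culture (-0.51 to -0.43) and of -0.47 in labelled overexpression over labelled knockdown (-0.58 to -0.36). The antisense neighbour Ggnbp1, which overlaps 614 of the 2407 exon bases of Bak1, held only 3 to 47 counts.

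Bax, the other main pore former and a known p53 target, had an order of its own. It was 75.9 CPM with conventional 3D culture, 64.9 with dynamic suspension, 144 in shControl, 214 in the knockdown-labelled library and 126 in the overexpression-labelled library. Per kilobase of exon, Bak1 was 1.93 times Bax with conventional 3D culture and 1.62 times with dynamic suspension, but 0.807 times in shControl, 0.330 times in the knockdown-labelled library and 0.406 times in the overexpression-labelled library. The leading pore-forming transcript was therefore Bak1 in conventional 3D culture and dynamic suspension and Bax in the other 3 libraries. With the longest transcript as length, the ratio was 1.36 and 1.14 in the first 2 and 0.568 in shControl. This ratio is free of library scaling, though Bax shares 192 of its 1576 exon bases with a gene on the same strand. Among the columns like estimated counts alone, shControl still stood below 1 and both other libraries above it.

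**Figure D5:**
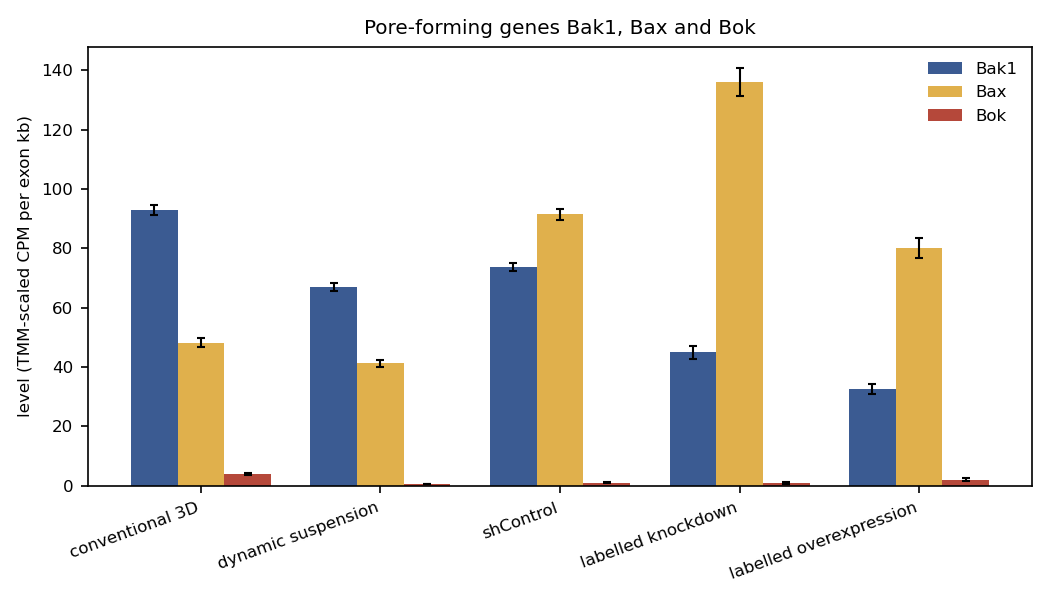
Level of the pore-forming genes Bak1, Bax and Bok (vertical axis, TMM-scaled CPM per exon kb, linear from 0) in the 5 libraries (horizontal axis), with 95% counting intervals. Bak1 is above Bax in conventional 3D culture and dynamic suspension and below it in shControl and the knockdown-labelled and overexpression-labelled libraries, and Bok is the lowest of the 3 genes throughout.

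Bok (ENSMUSG00000026278, chromosome 1, 93685660 to 93695764, plus strand), a pore former that pro-survival members hold only weakly, was the lowest of the members in CPM in every library. It had 387 counts with conventional 3D culture, 59 with dynamic suspension, 117 in shControl, 21 in the knockdown-labelled library and 58 in the overexpression-labelled library, which is 7.27, 0.977, 1.90, 1.38 and 3.45 CPM. Conventional 3D culture was the highest and the overexpression-labelled library came next. Below them, the log2 ratio of dynamic suspension over shControl was -0.94 (interval -1.44 to -0.50). With 4 units taken as 1 fragment it rests on 14.75 against 29.25 fragments, and the interval of -1.97 to -0.01 barely leaves out a ratio of 1. The 21 counts of the knockdown-labelled library, between shControl and dynamic suspension, could be told from neither. The log2 ratio of Bok was -2.85 in dynamic suspension over conventional 3D culture (interval -3.32 to -2.50), 1.92 in conventional 3D culture over shControl (1.63 to 2.25) and 1.25 in labelled overexpression over labelled knockdown (0.58 to 2.12). All 3 were beyond 2-fold, and the last rests on 58 against 21 counts. Conventional 3D culture, where Bok was highest, also had the highest sums of all 5 marker lists, among them the pigment cell list (30823 CPM). Its fibroblast list summed to 71.3 CPM, against 3.04 to 22.9 CPM in the other libraries. All 4 fibroblast genes were above 1 CPM there, and also in shControl and in dynamic suspension, where Bok was lowest. The overexpression-labelled library, second for Bok, had the lowest fibroblast sum, and the part of these cells in the level of Bok was not tested.

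Bcl2l11 (ENSMUSG00000027381, chromosome 2, 128126038 to 128162547, plus strand), the gene of BIM, which binds all main pro-survival proteins and can activate BAX and BAK, was the member higher beyond 2-fold in dynamic suspension over conventional 3D culture. It was 7.72 CPM with conventional 3D culture (7.00 to 8.51), 32.9 with dynamic suspension (31.5 to 34.4), 12.0 in shControl, 21.1 in the knockdown-labelled library and 11.3 in the overexpression-labelled library. Dynamic suspension was the highest and conventional 3D culture the lowest, and shControl and the overexpression-labelled library did not differ beyond counting error. The log2 ratio of Bcl2l11 was 2.09 in dynamic suspension over conventional 3D culture (interval 1.94 to 2.25) and 1.45 over shControl (1.33 to 1.57), both beyond 2-fold. The ratio was 0.80 in the knockdown-labelled library over shControl (0.61 to 1.00) and -0.89 in labelled overexpression over labelled knockdown (-1.16 to -0.63), short of 2-fold.

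Factors known to act on Bcl2l11 were read in the same libraries. Foxo3, a forkhead factor whose element GTAAACA lies in the stretch shown for Bcl2l11, was 92.6, 168, 68.6, 122 and 117 CPM in conventional 3D culture, dynamic suspension, shControl, labelled knockdown and labelled overexpression. Ddit3, the gene of the stress factor CHOP (2 gene identifiers carry this name, and that with the longer exons was used), was 29.3, 391, 54.3, 74.2 and 59.6 CPM. Foxo1, the other forkhead factor of the list, was 25.97, 35.9, 13.8, 18.6 and 27.8 CPM. All 3 genes were highest in dynamic suspension, as Bcl2l11 was, but Foxo1 was second highest in the overexpression-labelled library, where Bcl2l11 was low. Of the other 4 factors of the list, Stat3 and Mitf were highest in dynamic suspension too (Mitf by less than counting error), Creb1 in the overexpression-labelled and Rela in the knockdown-labelled library. Over conventional 3D culture, dynamic suspension had a log2 ratio of 0.85 for Foxo3 (interval 0.81 to 0.90) and of 3.73 for Ddit3 (3.66 to 3.81). Their part in the level of Bcl2l11 was not tested.

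Bmf (ENSMUSG00000040093, chromosome 2, 118528757 to 118549687, minus strand), whose protein is held on the myosin motor complex and released on detachment, was 43.7 CPM with conventional 3D culture, 28.1 with dynamic suspension, 9.79 in shControl, 13.5 in the knockdown-labelled library and 27.3 in the overexpression-labelled library. Bmf was thus high in 3 libraries and low in shControl and the knockdown-labelled library, with no overlap between the intervals of the high and the low ones. The log2 ratio of Bmf to shControl was 2.15 in conventional 3D culture (interval 2.03 to 2.29), 1.52 in dynamic suspension (1.39 to 1.66) and 1.47 in the overexpression-labelled library (1.30 to 1.66). In labelled overexpression over labelled knockdown, both like plain counts, it was 1.01 (0.77 to 1.26), at the 2-fold limit, and 0.98 with DESeq2 size factors, which ends the call. Bmf followed the same order of the 5 libraries as Hif1a, as did 152 of the 12848 measured genes (1.18%) and 1 of the 10 members. Dynamic suspension and the overexpression-labelled library, neighbours in that order, did not differ in Bmf beyond counting error. Their Hif1a levels, 390.5 CPM (385.5 to 395.5) and 384 CPM (375 to 394), had overlapping intervals too. The order was noticed after the values were seen.

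The balance between Bmf and Bcl2l11 differed between the culture methods. Per kilobase of exon, Bmf was 8.65 times Bcl2l11 with conventional 3D culture, 1.30 times with dynamic suspension, 1.24 times in shControl, 0.981 times in the knockdown-labelled library and 3.68 times in the overexpression-labelled library. From conventional 3D culture to dynamic suspension Bmf had a log2 ratio of -0.64 (interval -0.73 to -0.55), short of 2-fold. Conventional 3D culture and the overexpression-labelled library were the libraries richest in Bmf relative to Bcl2l11, and in the other 3 the ratio lay near 1 (0.696 to 0.926 with the longest transcript as length).

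Bad (ENSMUSG00000024959, chromosome 19, 6941861 to 6951899, plus strand), a BH3 gene whose protein is switched off by survival kinases, was 24.0, 21.8, 17.5, 23.1 and 16.5 CPM in conventional 3D culture, dynamic suspension, shControl, labelled knockdown and labelled overexpression. Bid (ENSMUSG00000004446, chromosome 6, 120891930 to 120916853, minus strand), which carries the death receptor signal to mitochondria once caspase-8 cuts it, was 32.9, 30.9, 33.7, 33.7 and 39.7 CPM in that order. Neither passed 2-fold in any comparison. The largest log2 ratio for Bad was -0.48, in labelled overexpression over labelled knockdown (interval -0.72 to -0.25), and for Bid 0.24, in that same comparison (0.07 to 0.41). Both overlap an antisense gene, Bad with Gpr137 over 524 of 2558 exon bases and Bid with its family relative Bcl2l13 over 628 of 3550, and the strand setting of the counting was not given in the sources used here. Gpr137 was 62.7, 39.2, 17.2, 27.6 and 68.4 CPM in conventional 3D culture, dynamic suspension, shControl, labelled knockdown and labelled overexpression. It was thus high both where Bad was highest and where Bad was lowest, and its part in the level of Bad was not tested.

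Summed per kilobase of exon, the 4 BH3 members stood at 27.9 CPM per kb with conventional 3D culture, 26.7 with dynamic suspension, 19.7 in shControl, 23.7 in the knockdown-labelled library and 24.2 in the overexpression-labelled library. Divided by the sum of the 4 pro-survival members this was 0.296, 0.287, 0.243, 0.283 and 0.282. With TMM scaling the totals of both classes were close between the culture methods, although Bcl2l11 went from 3.44% to 15.4% of the BH3 sum and Bmf from 29.8% to 20.04%. The totals depend on the scaling, while the shares and the ratio of the sums do not. Scaling by total counts moved the median log2 ratio of all genes between the culture methods by 0.19. The ratio of Bcl2l11 to Mcl1 per kilobase was 0.0135 with conventional 3D culture and 0.0670 with dynamic suspension, with 0.0308, 0.0445 and 0.0240 in shControl, labelled knockdown and labelled overexpression.

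The rest of the death machinery was read from 9 lists with 64 genes in all, and described by the same rule. In dynamic suspension over conventional 3D culture, 4 of 53 measured genes were higher and 2 lower, beside 6.47% and 7.68% of all genes tested, with a median log2 ratio of -0.01 against -0.02 over all genes. The tallies by list that follow are of few genes and are given as a description. Higher were 3 of 5 measured BCL2 relatives and 1 of 7 transcription factors, Ddit3. Bnip3 and its relative Bnip3l, receptors that mark mitochondria for removal and known HIF targets, were 157 and 106 CPM with conventional 3D culture and 640.4 and 238 CPM with dynamic suspension, log2 ratios of 2.03 and 1.17. Bik, a BH3 gene, held 35 and 109 counts (0.658 and 1.80 CPM), a log2 ratio of 1.41. It reached the minimum mean of 1 CPM only through dynamic suspension, where it was high. Its place among the 5 measured relatives was therefore favoured by the minimum level. Lower was 1 of 10 apoptosome and caspase genes, the mitochondrial protease gene Htra2 (66.7 and 25.9 CPM). Htra2 overlaps antisense genes over 1288 of its 2946 exon bases, and the strand setting of the counting was not given. Also lower was 1 of 5 inhibitors of apoptosis, Birc5 (23.4 and 6.31 CPM), the gene of survivin, which also serves cell division. None of the 2 measured p53 targets of the family, 10 membrane partners, 7 death receptor genes, 5 ubiquitin enzymes of MCL1 or 2 dynein light chains passed 2-fold. Among the p53 targets, Bbc3, the gene of PUMA, was 7.10 and 6.72 CPM, and Pmaip1, the gene of NOXA, held 12 and 10 counts, under the minimum level.

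In labelled overexpression over labelled knockdown, both like plain counts, 6 of 52 measured genes were higher and 6 lower, beside 17.5% and 14.8% of all genes tested, with a median log2 ratio of -0.19 against -0.03 over all genes. Higher were 1 of 4 BCL2 relatives (Bnip3, 2.73), 2 of 5 inhibitors of apoptosis (Xiap, 1.07, and Birc2, 1.22), 1 of 10 membrane partners (Itpr2, a calcium channel of the endoplasmic reticulum, 1.96), 1 of 7 death receptor genes (Cflar, which blocks caspase-8, 2.17) and 1 of 5 ubiquitin enzymes (Usp9x, which spares MCL1 from degradation, 1.38). Lower were 1 of 2 p53 targets (Bbc3, -1.14), 2 of 10 apoptosome and caspase genes (Casp2, -1.70, and Htra2, -1.15), 1 of 5 inhibitors of apoptosis (Birc5, -2.93), 1 of 7 death receptor genes (Fadd, the adaptor that recruits caspase-8, -1.34) and 1 of 2 dynein light chains (Dynll1, known to hold BIM on microtubules, -1.34). None of 7 transcription factors passed. The antisense overlap of Htra2 applies here too. Cflar was 61.5 CPM in the knockdown-labelled library and 278 CPM in the overexpression-labelled library, and Usp9x 87.4 and 227 CPM. Mcl1, on whose protein USP9X acts, was 202 and 201 CPM in the same libraries, and mRNA levels do not show protein levels.

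The p53 targets of the family, read over all 5 libraries, had their own orders. Bbc3 was 7.10, 6.72, 14.1, 49.7 and 22.5 CPM in conventional 3D culture, dynamic suspension, shControl, labelled knockdown and labelled overexpression, highest in the knockdown-labelled library, as was Bax. Pmaip1 had at most 12 counts, and 0 in the knockdown-labelled and overexpression-labelled libraries. There its counting intervals reached up to 0.242 and 0.220 CPM. Against shControl, which these 4 comparisons share, the pathway lists gave 13 higher and 10 lower of 52 measured genes in dynamic suspension, with both Bax (-1.15) and Bbc3 (-1.07) among the lower. They gave 8 and 2 in conventional 3D culture, 3 and 4 in the knockdown-labelled library, with Bbc3 higher (1.81) and Mitf lower (-1.17), and 8 and 7 in the overexpression-labelled library. Over all genes tested the shares higher and lower were 13.8% and 14.9%, 14.1% and 14.9%, 8.04% and 15.6%, and 16.1% and 20.1% in these comparisons. The median log2 ratio over the lists was 0.22, 0.11, 0.17 and 0.09.

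Of the apoptosome and caspase genes, Cycs and Diablo were lower beyond 2-fold in both the knockdown-labelled and the overexpression-labelled library over shControl, and they are named here after their values were seen. Cycs, the gene of cytochrome c, was 670 CPM in shControl and 215 and 186 CPM in the knockdown-labelled and overexpression-labelled libraries, beside 350 CPM with conventional 3D culture and 354 CPM with dynamic suspension. Diablo, whose protein blocks inhibitors of apoptosis, was 46.9, 5.12 and 7.86 CPM in shControl, labelled knockdown and labelled overexpression. Diablo shares 1193 of its 6166 exon bases with another gene on the same strand and overlaps antisense genes over 1448. For both Cycs and Diablo the group and the kind of column cannot be told apart.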

How the data were processed

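Per the labels' protocols, strand-specific poly(A) libraries were sequenced as paired reads. Per the submitters' processing notes, cutadapt, HISAT2, StringTie and the build GRCm38.p6 (mm10) were used, with no versions given. The deposited table holds 1 column per library. From the values, 3 deposited columns (conventional 3D, dynamic suspension, shControl) look like estimated counts, with low values piled at 4 (796 to 926 genes at 4 against 412 to 482 at 3), and 2 deposited columns (labelled knockdown, labelled overexpression) look like plain counts. For the counting step and its strand setting, nothing is given in the sources used here.

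Gene names came from GENCODE M21, which matched all 54100 identifiers. Counts were scaled to CPM with TMM factors of edgeR 4.0.16 in R 4.3.3 (0.869 to 1.091). Log2 ratios used a prior of 2 counts, and intervals are exact binomial 95% intervals of 1 library's counts against another's, for counting error only. With 1 library per group no p-value is given. A call needed a log2 size of at least 1, a mean of at least 1 CPM and an interval that excluded a ratio of 1. The calls were tried on simulated pairs of libraries with known changes and counting error only. That simulation used no scaling factors and no variation between cultures, and took each unit as 1 read, so it does not test these. Lengths are merged exons, or the longest transcript as an alternative. Other alternatives were scaling by total counts, by DESeq2 1.42.0 size factors, by TMM within a pair and by TMM from coding genes of own sequence, a prior of 0.5, no minimum and a minimum of 10 CPM. The count of Bcl2l2 with its readthrough gene, and intervals that take 4 units of the 3 columns like estimated counts as 1 fragment, were added after seeing the data.

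The 10 members and the pathway lists were chosen with earlier results of these data known. Named genes are all members, Hif1a, Bax, Bbc3, Pmaip1, Mitf, and pathway genes beyond 2-fold in dynamic suspension over conventional 3D culture or in labelled overexpression over labelled knockdown. Foxo1, Foxo3, Stat3, Creb1, Rela, Cycs, Diablo and the Bcl2a1 genes were named after their values were seen.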

Additional observations from a re-analysis of the deposited data

How the results depend on the processing

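No paired analysis was possible because each group has 1 library. Of 60 member ratios, 14 were called, and 13 of these calls were kept under every scaling and prior tried. The exception was Bmf in labelled overexpression over labelled knockdown, which left 1 higher member (Bok) with DESeq2 size factors. A minimum mean of 10 CPM removes Bok from testing, which left 0 lower members in dynamic suspension over conventional 3D culture, 1 higher (Bmf) in conventional 3D culture over shControl and 1 higher (Bmf) in labelled overexpression over labelled knockdown. With the longest transcript as length, Mcl1 made up 65.8%, 54.3%, 48.4%, 59.3% and 57.6% of the pro-survival sum in conventional 3D culture, dynamic suspension, shControl, labelled knockdown and labelled overexpression. In 8 of 60 ratios, none called and none above 0.29 in size under any scaling, the sign changed with the scaling: Bcl2, Bad and Bid in dynamic suspension over conventional 3D culture, Bcl2l2 in dynamic suspension and in labelled overexpression over shControl, Bid in conventional 3D culture and in labelled knockdown over shControl, and Mcl1 in labelled overexpression over labelled knockdown. Over all genes the 6 comparisons called 833 to 2155 genes higher and 989 to 2594 lower, 1652 to 3449 and 2227 to 3989 with no minimum, and 372 to 1255 and 472 to 1527 with a minimum of 10 CPM. With 4 units of the columns like estimated counts taken as 1 fragment, all 14 calls were kept and none was added, while 4 of the 49 member ratios whose interval excluded 1 no longer did so: Bad in dynamic suspension over conventional 3D culture, Bcl2l1 and Bid in dynamic suspension over shControl, and Bcl2l2 in conventional 3D culture over shControl. A floor of 3 counts lay between 0.0487 and 0.197 CPM as deposited, and between 0.179 and 0.226 CPM with that unit, under which Bok rests on 14.75 fragments in dynamic suspension and 21 in the library labelled knockdown.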
